A study of Mus musculus with 6 samples.

Results

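shTug1 clone 3 was compared with shTug1 clone 2, the pair of knockdown lines whose arrays lay on the same slide, so the comparison used 4 of the 6 arrays of the series. The rule that picked the arrays used their labels only, but the comparison was chosen with earlier results of these data known. All cells were conditionally immortalised mouse podocytes, which carry a temperature-sensitive SV40 T antigen, grow at a permissive temperature and differentiate after a shift to a higher one; RNA was taken after 10 days of differentiation. Each clone had been made by lentiviral delivery of a pGIPZ vector with a short hairpin RNA against Tug1, and each shTug1 group was 1 clone with 2 arrays labelled as biological replicates. The remaining 2 arrays were podocytes with a scramble hairpin (shControl); they lay on another slide, and their values are given beside the clones as levels only. No untransduced cells are among the 6 arrays. Each group is thus 1 line, and a difference between these clones describes the 2 lines and not knockdown lines in general. Clone 2 and clone 3 stand below for the libraries labelled so, since Tug1 in the libraries labelled shTug1 clone 2 was not lower than in those labelled shControl.

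Tug1 is a long noncoding RNA of the nucleus and cytoplasm. In podocytes, the epithelial cells whose interlocking foot processes and slit diaphragms form the outer layer of the kidney filter, it is known for binding near the gene of PGC-1α (Ppargc1a), a coactivator of mitochondrial gene transcription. It has also been described as an RNA partner of polycomb complexes, which silence genes through histone marks.

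Levels are Agilent 1-colour signals as log2 relative to the 75th percentile of the same array, so 0 is the level of the 75th percentile spot and each step of 1 is a doubling. A gene was tested where at least 1 clone had its probe well above background on each of its arrays, which left 21085 genes, 14892 of them with a symbol. Before scaling, the 75th percentile was 1055 and 949 intensity units on the clone 2 arrays against 569 and 832 on the clone 3 arrays, while the 99th percentile spanned 82941 to 96435 over all 4. The share of probes well above background was 61.9% and 63.7% in clone 2 and 61.7% and 68.0% in clone 3. Clone 2 occupied slide positions 1 and 2 and clone 3 positions 3 and 4, so position on the slide and clone cannot be told apart. Arrays of a clone correlated at r = 0.983 (clone 2) and 0.990 (clone 3) across genes, against 0.953 to 0.967 between clones. Genes are not independent replicates, so these correlations are descriptions.

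The clones differed in many genes, and in this fit more calls were lower than higher in clone 3. Of 21085 genes, 168 were higher in clone 3 (0.797% of those tested) and 501 were lower (2.38%) at an adjusted p under 0.05 in limma with Benjamini-Hochberg adjustment over all genes. The called rises had a median log2 difference of 2.10 (range 1.10 to 4.15), and the called falls a median of -2.29 (range -1.13 to -6.98). Whatever the test said, 1627 genes were over 2-fold higher and 1634 over 2-fold lower, while over 16-fold there were 3 higher and 58 lower. These medians, ranges and counts include genes not well above background on either array of 1 clone. Such genes were 83 of the called rises and 108 of the called falls, and the sizes of their differences are not measured. The largest called fall, Zhx1, was 1 of them and was at least 27.8-fold. The median gene itself was 0.39 higher in clone 3 (quartiles -0.05 and 0.69), a shift that moved to 0.15 under quantile normalization and 0.03 under cyclic loess, so gene lists are also given relative to it. Both clone 3 arrays lay above both clone 2 arrays for 12520 genes (59.4%) and below them for 3505 (16.6%), and these shares are the background for any gene called non-overlapping here.

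The number of calls and their split depended on single arrays, on the scaling or background correction, on the filter and on the variance model. Leaving out 1 clone array leaves a single array in its clone, so the spread within a clone then comes from the other clone alone. Calls in such refits varied widely and are not read gene by gene. All 669 called genes kept their direction in each of them, and the median gene ran from 0.34 to 0.44. Rises were 25.1% of the calls here, 107 of 875 calls under cyclic loess, 74.5% after normexp background correction, 48.9% in the authors' series values, 70.4% when all 4 arrays had to be above background and 70.2% with a mean-variance trend. The fits did not share 1 set of genes: the series values held 314 of the 669 genes called here, and the filter on all 4 arrays 418.

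**Figure D1:**
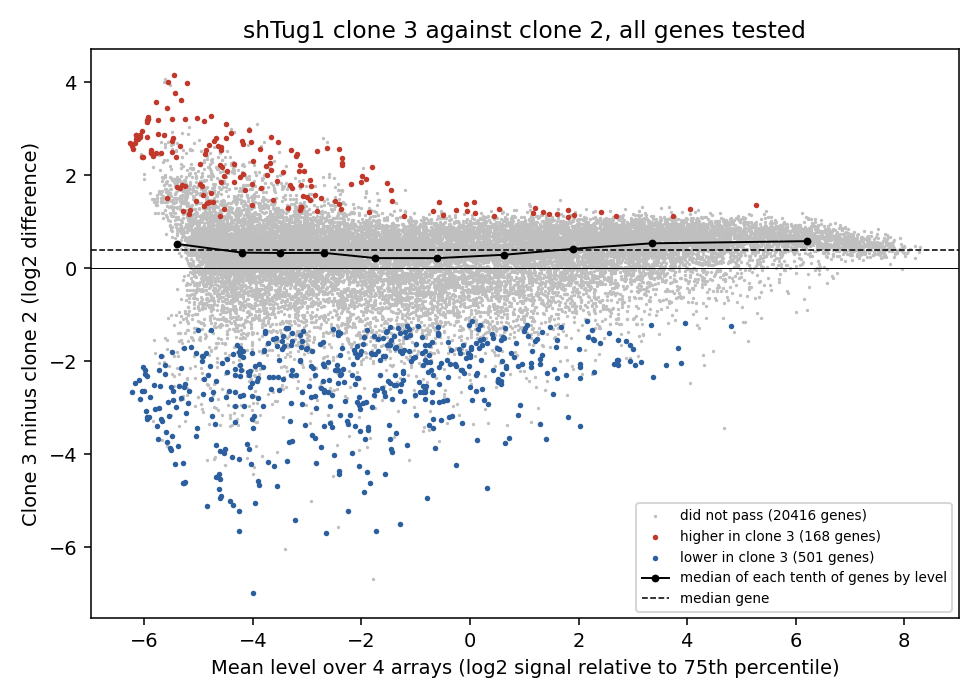
Each point is a gene: the mean level over the 4 clone arrays (x axis, log2 signal relative to the 75th percentile) against the clone 3 minus clone 2 difference (y axis, log2), with the 168 rises and 501 falls in colour, the median gene dashed and the medians of 10 equal groups of genes by level as a line. Rises gather at low levels, falls span low and middle levels, and the line runs from 0.52 (dimmest) through 0.22 (middle) to 0.58 (brightest).

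The 168 rises and 501 falls lay at different levels. Genes that rose had a median level of -5.34 in clone 2, -3.13 in clone 3 and -2.86 in shControl, and 83 of them were not well above background on either clone 2 array. Genes that fell had a median level of -0.81 in clone 2, -3.41 in clone 3 and -3.20 in shControl, and 108 of them were not well above background on either clone 3 array. The clone 2 median of the rises is at the lowest signal above background on those arrays (-5.28 and -5.38). All tested genes had medians of -1.18, -1.22 and -1.12 in the same order. These genes were selected on the difference between the clones, so the clone levels are a description. The dimmest of 10 equal groups of genes by level held 75 of the rises and 84 of the falls, and the brightest held 1 of each.

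Tug1, the targeted RNA, was lower in clone 3 than in clone 2. Probe A_52_P599162 read -1.86 and -1.88 in clone 2, -3.10 and -3.23 in clone 3, and -2.88 and -2.49 in shControl. Both clone 3 arrays were below both clone 2 arrays, and both shControl arrays lay between the clones, so the order by this probe was clone 2, shControl, clone 3. The difference between the clones was -1.30 (SE 0.17, n = 2 and 2, limma adjusted p = 0.0387). It was -0.70 after normexp background correction (adjusted p = 0.0227). It lost its call without clone 3 replicate 1, clone 3 replicate 2 or clone 2 replicate 1, refits that leave a single array in 1 clone. Against the shControl arrays, the libraries labelled shTug1 clone 2 were not lower in Tug1 by this probe, which goes against their label as a knockdown; clone and control lay on different slides, so slide and knockdown cannot be told apart there, and the probes were not placed relative to the hairpin target or along the Tug1 transcript.

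The other Tug1 probes gave less. Probe A_51_P119401 read -2.73 and -2.94 in clone 2, -6.36 and -3.58 in clone 3, and -6.21 and -6.38 in shControl. It was above background on both clone 2 arrays, on 1 of 2 clone 3 arrays and on neither shControl array, and its difference did not pass (adjusted p = 0.149 in the fit over all probes). The third probe, A_55_P2123716, was not above background on any of the 6 arrays. By both measurable probes clone 2 held the highest Tug1 signal of the 3 groups.

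**Figure D2:**
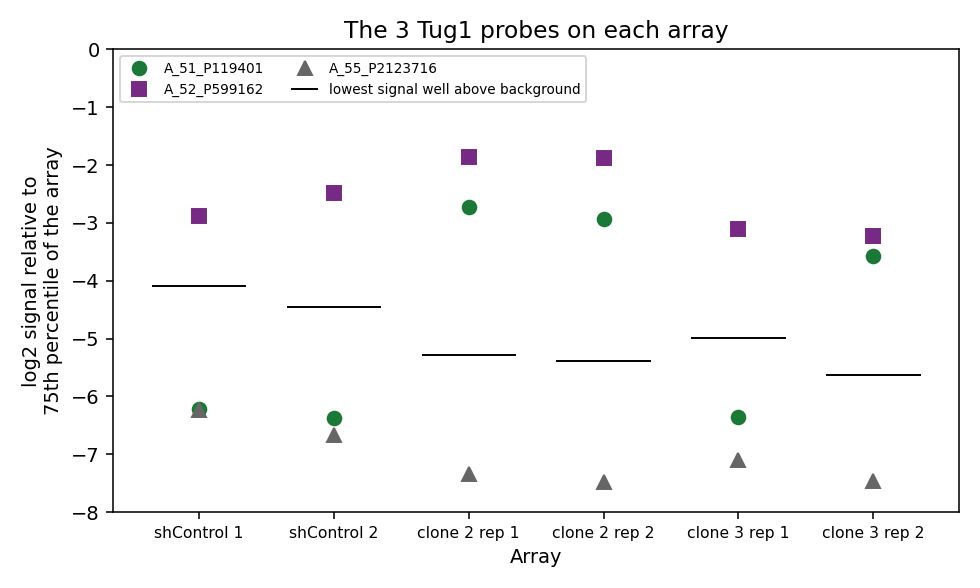
Levels of the 3 Tug1 probes (y axis, log2 signal relative to the 75th percentile) on each of the 6 arrays (x axis), with the lowest signal well above background on each array as a bar. A_52_P599162 is highest on the clone 2 arrays (-1.86 and -1.88) and lowest on the clone 3 arrays (-3.10 and -3.23), and A_55_P2123716 lies under the bar on all 6.

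The start of Tug1 is printed because it is the locus the hairpins were aimed at. It is the window from 250 bases before to 50 after the RefSeq start on the minus strand of GRCm38.p6, chr11:3648765-3649064, with every CG in capitals; CG reads the same on both strands. It holds 37 of them, a number that 5.37% of the 27025 promoters in the table reach or exceed, and the median promoter holds 7.
Tug1: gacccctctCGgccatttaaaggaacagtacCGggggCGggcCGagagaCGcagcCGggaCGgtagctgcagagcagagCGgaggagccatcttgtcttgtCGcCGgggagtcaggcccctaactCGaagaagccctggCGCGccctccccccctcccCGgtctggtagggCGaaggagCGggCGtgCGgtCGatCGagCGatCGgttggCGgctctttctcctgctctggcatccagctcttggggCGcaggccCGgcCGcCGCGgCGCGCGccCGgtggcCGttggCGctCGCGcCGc

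Genes near Tug1 on chromosome 11 did not shift together. Of 18 tested neighbours, Tug1 included, 0 rose and 1, Tug1 itself, fell (background 0.797% and 2.38%), with a median of 0.47. In clone 3, 11 lay entirely above and 3 entirely below clone 2 (59.4% and 16.6% of all genes). Differences ran from -1.80 to 1.11, and the gene at -1.80, lower than Tug1, did not pass. Morc2a, the neighbour that starts beside Tug1 on the opposite strand, read 0.43 and 0.50 in clone 2, and clone 3 gave 0.53 and -0.18. Its arrays overlapped, and the difference of -0.29 (SE 0.29) did not pass (adjusted p = 0.449). Across the genome, medians over the autosomes and X ran from 0.24 (chromosome 13) to 0.48 (chromosome 7), and the 6 genes tested on Y had a median of 0.50. Of 288 runs of 50 consecutive genes, 0 departed from the median gene by over 1 and 2 by over 0.5, with the extremes -0.23 on chromosome 3 (Dhx36 to Map9) and 0.78 on chromosome 15 (Mafa to Zfp251).

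Among genes above background on all 4 arrays, the largest rises, of which 14 are given, had low levels in clone 2. Aqp2, the vasopressin-regulated water channel of the collecting duct, led them. It read -3.78 and -3.59 in clone 2, -1.17 and -1.08 in clone 3, and -0.89 and -1.74 in shControl, and rose by 2.56 (SE 0.18, adjusted p = 0.0198). Shroom3, an actin-binding protein that shapes epithelial cells, read -4.42 and -4.74 in clone 2 and -1.91 and -2.15 in clone 3, a rise of 2.55 (SE 0.21). In both genes the gap between the clones was many times the gap between arrays of a clone.

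The other 12 of these rises were of mixed kinds. Card14, a scaffold upstream of NF-κB, rose by 2.43, and Ikzf3, the lymphoid factor Aiolos, by 2.11. Lair1, a collagen-binding inhibitory receptor of leukocytes, rose by 2.37 and Marco, a macrophage scavenger receptor, by 2.22. Ffar3, a receptor for short-chain fatty acids, rose by 2.27. Fxyd1, a regulator of the sodium pump, rose by 2.22, Dpys, which breaks down pyrimidines, by 1.73, and the tight-junction gene Cldn9 by 1.72. Krtap1-4 (1.91), 1700016K19Rik (1.85), Olfr97 (1.79) and Ushbp1 (1.79, but 0.21 on its other probe) completed the set; Krtap and Olfr genes belong to families of similar sequence, so their probes may not separate every member. Because Lair1, Marco and Ikzf3 are leukocyte genes, the list of immune cell markers bears on them: 9 of 15 were tested, 0 rose, 0 fell, and the summed linear signal (1 = the 75th percentile) was 8.17 and 6.97 in clone 2, at least 10.8 on each clone 3 array and 44.7 and 24.7 in shControl. The 9 tested immune markers were each well above background on all 4 clone arrays. Lyz2, Cd3g and Fcgr3 were not above background on any array, and Ptprc was above it on both arrays of each clone. Over all genes, 0.797% rose and 2.38% fell. The part of such cells in these rises was not tested.

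A further set of rises could only be bounded, because clone 2 was not well above background on either array. Krtap6-1 was at least 5.26-fold higher in clone 3, Cad, which starts pyrimidine synthesis, at least 5.20-fold, and Gm6329 at least 4.30-fold. Olfr649 was at least 4.15-fold higher, the keratin gene Krt17 at least 4.12-fold and the serine protease gene Prss34 at least 4.04-fold. A bound sets the clone 3 mean against the higher of the lowest signal above background and the probe's own reading on each clone 2 array.

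Of the 15 largest falls among genes above background on all 4 arrays, 12 were above the 75th percentile on both clone 2 arrays. Hif1a, the oxygen-regulated subunit of hypoxia-inducible factor, read 0.19 and 0.74 in clone 2, -4.33 and -3.96 in clone 3, and -6.18 and -3.46 in shControl, a fall with a log2 difference of -4.61 (SE 0.27, adjusted p = 0.0196). Golph3, a Golgi membrane protein, read 1.56 and 1.81 in clone 2 and -3.44 and -3.08 in clone 3, with a difference of -4.95 (SE 0.22). Lhfp read 1.81 and 0.37 in clone 2 and -4.93 and -4.20 in clone 3, with a difference of -5.65 (SE 0.55). For these 3 genes no clone 2 array came within 4 log2 units of a clone 3 array.

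The other 12 large falls were genes of several kinds. Dhx15, a helicase of spliceosome disassembly, differed by -4.38, Eif3a, a subunit of translation initiation factor eIF3, by -3.75, and Tram1, a membrane protein of the secretory translocon, by -3.81. Asah1, the lysosomal acid ceramidase, differed by -4.74, Lypla1, a protein depalmitoylase, by -4.42 and the peroxisomal gene Acbd5 by -3.70. Of signalling and adhesion genes, the transcription factor Ets1 differed by -5.50, the phosphatase Ppm1a by -3.97, Amotl2, an angiomotin, by -3.87, Vcl, the focal adhesion protein vinculin, by -3.68 and Pkia, an inhibitor of protein kinase A, by -3.68. Lrrc58 differed by -4.24. The 2 shControl arrays were far apart for several of them: Ets1 read -4.59 and 0.18 there and Eif3a -4.59 and 0.37, against 1.49 and 1.43 for Ets1 and 2.11 and 2.92 for Eif3a in clone 2.

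**Figure D3:**
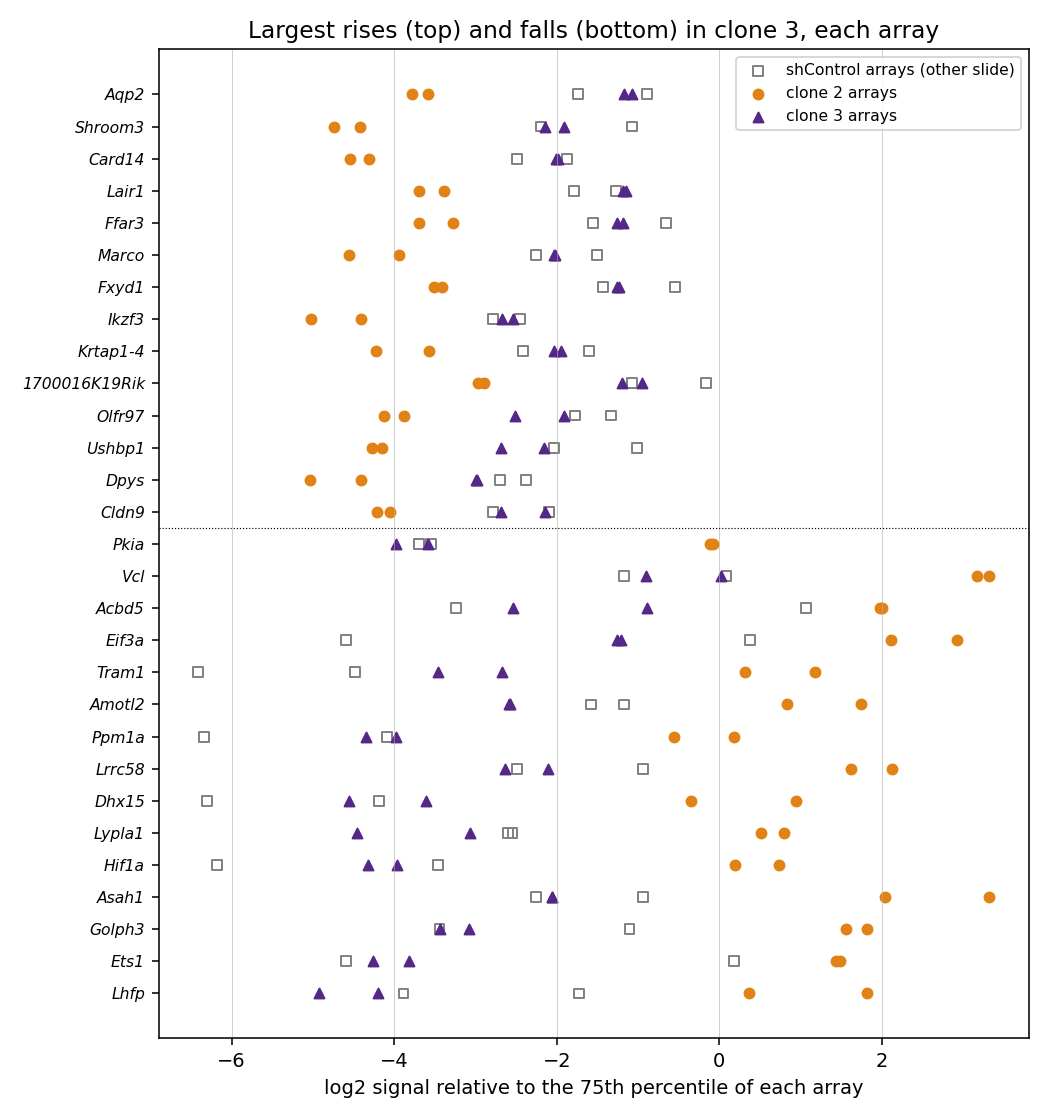
Level on each array (x axis, log2 signal relative to the 75th percentile) of 14 of the largest rises (top) and 15 largest falls (bottom) among genes above background on all 4 clone arrays. Clone 3 and clone 2 points are separate in all 29 rows, which the choice of genes requires, and shControl points are open squares (Aqp2 -0.89 and -1.74, Hif1a -6.18 and -3.46).

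Falls to background in clone 3 were bounded in the same way. Zhx1, a zinc finger and homeobox repressor, read -0.37 and -0.66 in clone 2 and was not above background in clone 3, a fall of at least 27.8-fold. Rassf3 was at least 17.2-fold lower, N4bp1 at least 14.8-fold and Btg1c at least 12.7-fold. Prpf4b, a kinase of pre-mRNA splicing, was at least 11.2-fold lower, and Hnrnpl, a splicing regulator, at least 10.5-fold. The other probe of Prpf4b differed by -2.14 and was also not above background in clone 3. Every called rise and fall named here kept its direction with any 1 clone array left out. Each lost its call without either clone 3 array, where the spread within a clone came from clone 2 alone.

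The promoters of Hif1a and Aqp2 are printed because these genes carry a leading fall and the leading rise. The Hif1a window (GRCm38.p6, plus strand, chr12:73907617-73907916) holds 25 CG, reached or exceeded by 18.4% of promoters in the table. The Aqp2 window (GRCm38.p6, plus strand, chr15:99578806-99579105) holds 8, reached or exceeded by 49.0%. A comparison of CG content between the called sets is void, because only 74.3% of the named rises and 76.2% of the named falls have a RefSeq promoter in the table.
Hif1a: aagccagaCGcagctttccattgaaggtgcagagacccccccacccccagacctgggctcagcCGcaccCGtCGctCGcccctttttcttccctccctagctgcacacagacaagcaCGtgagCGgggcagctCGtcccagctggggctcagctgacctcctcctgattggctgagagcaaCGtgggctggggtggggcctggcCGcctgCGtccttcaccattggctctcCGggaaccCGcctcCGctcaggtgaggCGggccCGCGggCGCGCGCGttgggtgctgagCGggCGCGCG
Aqp2: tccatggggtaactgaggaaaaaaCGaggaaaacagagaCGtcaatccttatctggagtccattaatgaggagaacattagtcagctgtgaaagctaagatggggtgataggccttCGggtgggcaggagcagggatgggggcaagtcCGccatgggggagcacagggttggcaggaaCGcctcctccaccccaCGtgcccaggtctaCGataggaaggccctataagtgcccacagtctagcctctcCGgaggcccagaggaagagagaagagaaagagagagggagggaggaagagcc

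Several of the largest falls were seen by 1 probe and not by another probe of the gene. The other probe of Ets1 differed by 0.18, that of Lypla1 by -0.20, and that of Vcl by 0.98, against -5.50, -4.42 and -3.68 by their brightest probes. In clone 2 these other probes read -4.13 and -4.06 (Ets1), -3.14 and -2.94 (Lypla1), and -0.82 and -1.48 (Vcl). The lowest signals above background in clone 3 were -4.99 and -5.64. The dim Ets1 and Lypla1 probes could therefore not measure falls of the size given by the brightest probes. Asah1 fell in direction on its other probe too (-1.52). Tfam, the mitochondrial transcription factor, had the reverse arrangement: its brightest probe differed by -0.04 and the others by -0.41 and -3.81. The last of these passed as a fall (limma adjusted p = 0.0215 in the fit over all probes). That probe was not above background on either clone 3 array, so the size of its fall is not measured. For these genes the difference between the clones depends on the probe, and the probes were not placed on transcripts.

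Called genes with 2 or more usable probes gave a check within the gene. Of 64 such falls, all probes lay below the median gene (0.39) for 53 (82.8%), and another probe itself passed as a fall for 14. A probe between 0 and 0.39 counts as below it, as the other probe of Ets1 (0.18) does. The 53 thus include genes whose other probe did not fall. Of 11 such rises, all probes lay on 1 side for 4, another probe passed as a rise for 1 and another passed as a fall for 1. The same-side share over all 3270 genes with 2 or more probes was 58.9%. Probes of a called fall spanned more than 4-fold in 25 of 64 genes, against 394 of 3270 genes in all. The differences between these shares were not tested.

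**Figure D4:**
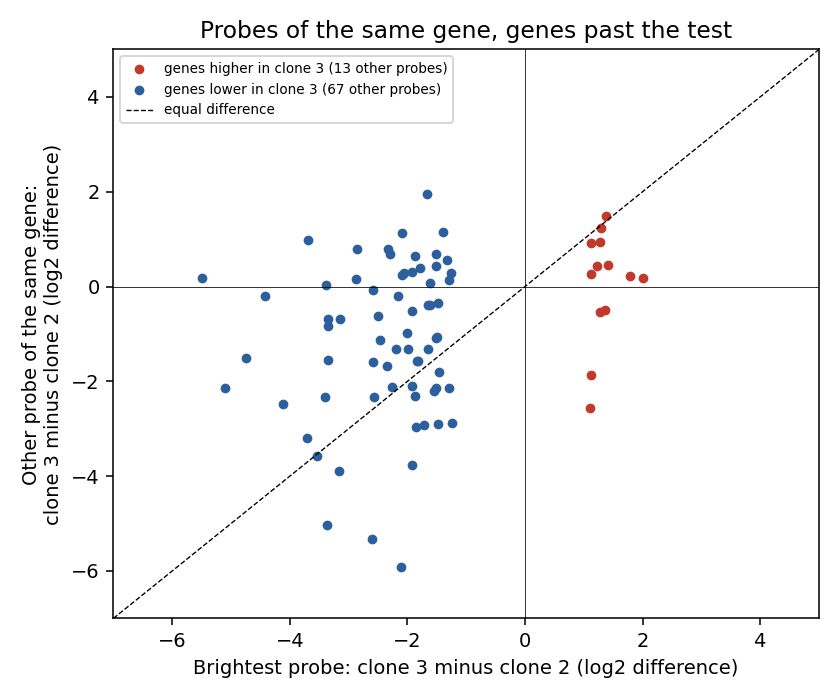
For genes past the test, the log2 difference of the brightest probe (x axis) is set against that of each other usable probe of the same gene (y axis), with equal differences on the dashed line. Points at the upper left are falls whose other probe did not fall, such as Ets1 (-5.50 and 0.18) and Vcl (-3.68 and 0.98).

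Among podocyte genes, 1 slit diaphragm gene fell and the defining markers did not pass. Of 37 genes on the list, 29 were tested, 1 rose (Bmp7) and 1 fell (Kirrel), against 0.797% and 2.38% of all genes. In clone 3, 11 lay entirely above and 11 entirely below clone 2 (59.4% and 16.6% of all genes), and the median was 0.08, or -0.30 relative to all genes. Kirrel, which encodes the slit diaphragm protein NEPH1, read 2.32 and 2.29 in clone 2, while the clone 3 arrays gave 0.65 and -0.14. The difference was -2.05 (SE 0.31, limma adjusted p = 0.048), but its other probe differed by 0.28. That probe was far dimmer, at -3.43 and -3.55 in clone 2. Bmp7, a ligand that sustains nephron progenitors and podocytes, rose by 1.27 (SE 0.18, adjusted p = 0.0452) at low levels.

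The markers that define podocytes were present but dim. Wt1, the podocyte transcription factor, read -3.14 and -3.43 in clone 2 and -3.63 and -3.20 in clone 3. Nphs1 (nephrin) read -4.41 and -4.71 in clone 2 and -3.68 and -3.89 in clone 3. Neither passed: the differences were -0.12 for Wt1 and 0.78 for Nphs1 (adjusted p = 0.0707). Synpo, the actin-associated protein of foot processes, was bright, at 2.26 and 2.32 in clone 2 against 0.88 and 2.19 in clone 3; it differed by -0.75 on this probe and 0.77 on the other. Podxl, Tcf21, Trpc6 and Kirrel2 did not reach the level needed for the test, so the labelled cell type is borne out by some of its markers only.

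Markers of other kidney cells were measurable in part. Of the 20 tubule and collecting duct markers outside the proximal tubule, 10 were tested, Aqp2 rose and Umod, the thick limb protein uromodulin, was at least 2.33-fold lower. Of the 16 proximal tubule markers, 10 were tested, Ggt1 was at least 1.80-fold higher, and Gatm, of creatine synthesis, was at least 8.99-fold lower. Parietal, mesangial, endothelial and immune lists had 8, 11, 10 and 9 genes tested and 0 called in either direction. Over all genes, 0.797% rose and 2.38% fell. Of endothelial markers, Pecam1, Kdr, Flt1, Ehd3, Plvap, Vwf, Eng, Nos3 and Sox17 were above background on every clone array, Tie1 and Emcn on none, and Cdh5 on 1 clone 2 array. The summed linear signal of that list was 3.75 and 3.15 in clone 2 against 4.06 and 3.59 in clone 3, with 7.43 and 6.63 in shControl. Of tubule markers, Cdh16, Scnn1a, Pax2, Pax8, Lrp2 and Cubn were above background on every clone array, and Epcam and Cdh1 on none. The sum for tubule and collecting duct markers, Aqp2 included, was 40.5 and 44.6 in clone 2, with 79.3 and 60.2 in clone 3 and 323.2 and 165.3 in shControl. The part of such cells in the results was not tested. In bulk RNA, fewer cells of a type and less of a transcript in each cell cannot be told apart.

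In the PGC-1α and mitochondrial transcription genes, 1 of 21 rose and 1 fell (0.797% and 2.38% of all genes), with a median of 0.51. Ppargc1a itself was not above background on any clone array by either of its probes. Ppara, the nuclear receptor of fatty acid catabolism, read -2.36 and -2.22 in clone 2 and -0.53 and -0.69 in clone 3, a rise of 1.68 (SE 0.18, adjusted p = 0.0263). Gabpa, the GA-binding subunit of nuclear respiratory factor 2, read 0.96 and 0.83 in clone 2 and -1.34 and -0.72 in clone 3, a difference of -1.92 (SE 0.27, adjusted p = 0.0425), and its other probe differed by -0.51. The pair moved in opposite directions, and the other 19 genes did not pass on their brightest probes. The lowest of these differed by -3.38, and Tfam had a dimmer probe that passed as a fall.

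No gene of the respiratory chain passed the test. Of 76 oxidative phosphorylation subunits 0 rose and 0 fell past the test (0.797% and 2.38% of all genes did), 69 lay entirely above clone 2 and 2 entirely below (59.4% and 16.6% of all genes), and the median was 0.64, or 0.25 relative to all genes. The sign of that relative value turned in 2 of 5 other scalings, with a range of -0.10 to 0.25. Median centring, 1 of the 5, shifts each array by a constant and cannot change a relative value. The others ran from -0.10 to 0.23. The brightest of the 10 groups of genes by level had a median of 0.58 over genes of all kinds. The 59 cytosolic ribosomal proteins were placed alike, all entirely above clone 2 with 0 called, a median of 0.54 and a sign relative to all genes that turned in 3 scalings. Fatty acid oxidation genes had a median of 0.11 over 26 tested. Hadh, a dehydrogenase of the cycle, fell with a difference of -1.82. Cpt2, the inner membrane carnitine transferase, rose by 1.12 on its brightest probe but differed by -1.87 on the other. That other probe was not above background on either clone 3 array, so the size of its difference is not measured.

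Few adhesion and matrix genes were called in each list, beside 0.797% of all genes that rose and 2.38% that fell. Itgb1, the common integrin β1 chain, read 4.18 and 3.26 in clone 2 and -0.17 and 0.81 in clone 3, a difference of -3.40 (SE 0.47, adjusted p = 0.042), and its other probe gave -2.34. Itgb7 rose by 1.32, and of the 25 focal adhesion genes tested none other was called. In the actin and contractile list, Vcl was the only gene of 27 to pass. Among 27 collagens, Col4a5, a chain of the mature glomerular basement membrane, differed by -1.72 from levels of 4.85 and 4.54 in clone 2 to 3.02 and 2.92 in clone 3, and Col5a3 was at least 3.11-fold higher. Nid1, which links laminin and collagen IV, differed by -1.27, and of the proteases and inhibitors Plat (tissue plasminogen activator) differed by -1.97 and Serpine2 was at least 3.83-fold lower.

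Signalling lists lay below the median gene. So did lists of other kinds, such as matrix glycoprotein, matrix protease, slit diaphragm, Hox and fatty acid oxidation genes, while other lists lay above it. The TGF-β and BMP genes had a median of -0.02 over 34 tested, or -0.41 relative to all genes. The relative value kept its side in each of 5 other scalings, of which median centring cannot change it. Bmp7 was up and the coreceptor Tgfbr3 down (-1.44, SE 0.17), beside 0.797% of all genes that rose and 2.38% that fell. The Wnt genes had a median of 0.05 over 29 tested (-0.33 relative), with only the receptor Fzd6 called (-1.73). Their relative value ran from -0.34 to -0.09 over the 5 other scalings. Immediate early and feedback genes had 1 rise, 1 fall and a median of 0.05 over 24 (-0.34 relative): Spry1, an inhibitor of receptor tyrosine kinase signalling, read 3.32 and 3.49 in clone 2 and 1.15 and 1.22 in clone 3, while its relative Spry2 was at least 2.18-fold higher in clone 3. Median levels in clone 2 and clone 3 were 1.29 and 0.84 for the TGF-β and BMP genes and 0.67 and 0.75 for the immediate early genes. The 7th and 8th of 10 groups of genes by level, which hold these levels, had medians of 0.29 and 0.42. The Wnt genes had median levels of -2.16 and -2.68, and the 4th and 5th groups had medians of 0.33 and 0.22.

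The polycomb and DNA methylation genes had the lowest median of the 35 lists in relative terms among lists with at least 8 genes tested. Of 29, 27 were tested, 0 rose and 1 fell (0.797% and 2.38% of all genes). In clone 3, 9 lay entirely above and 13 entirely below clone 2 (59.4% and 16.6% of all genes). The median was -0.17, or -0.56 relative to all genes. The relative value kept its side in 5 of 5 other scalings, of which median centring cannot change it. The list's median level was -1.20 in clone 2 and -1.29 in clone 3. The 5th and 6th of 10 groups of genes by level, which hold these levels, each had a median of 0.22. The called gene was Rnf2, the E3 ligase RING1B of polycomb repressive complex 1, at 1.09 and 1.28 in clone 2 and -1.13 and -0.43 in clone 3 (difference -1.97, SE 0.29, adjusted p = 0.0475). Suz12 differed by -1.07 (adjusted p = 0.0803) and Bmi1 by -0.64 (0.0812), while the catalytic subunits Ezh2 and Ezh1 differed by 0.28 and 0.64; none of these passed. The members were picked with earlier results known, so the median is a description of the list.

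**Figure D5:**
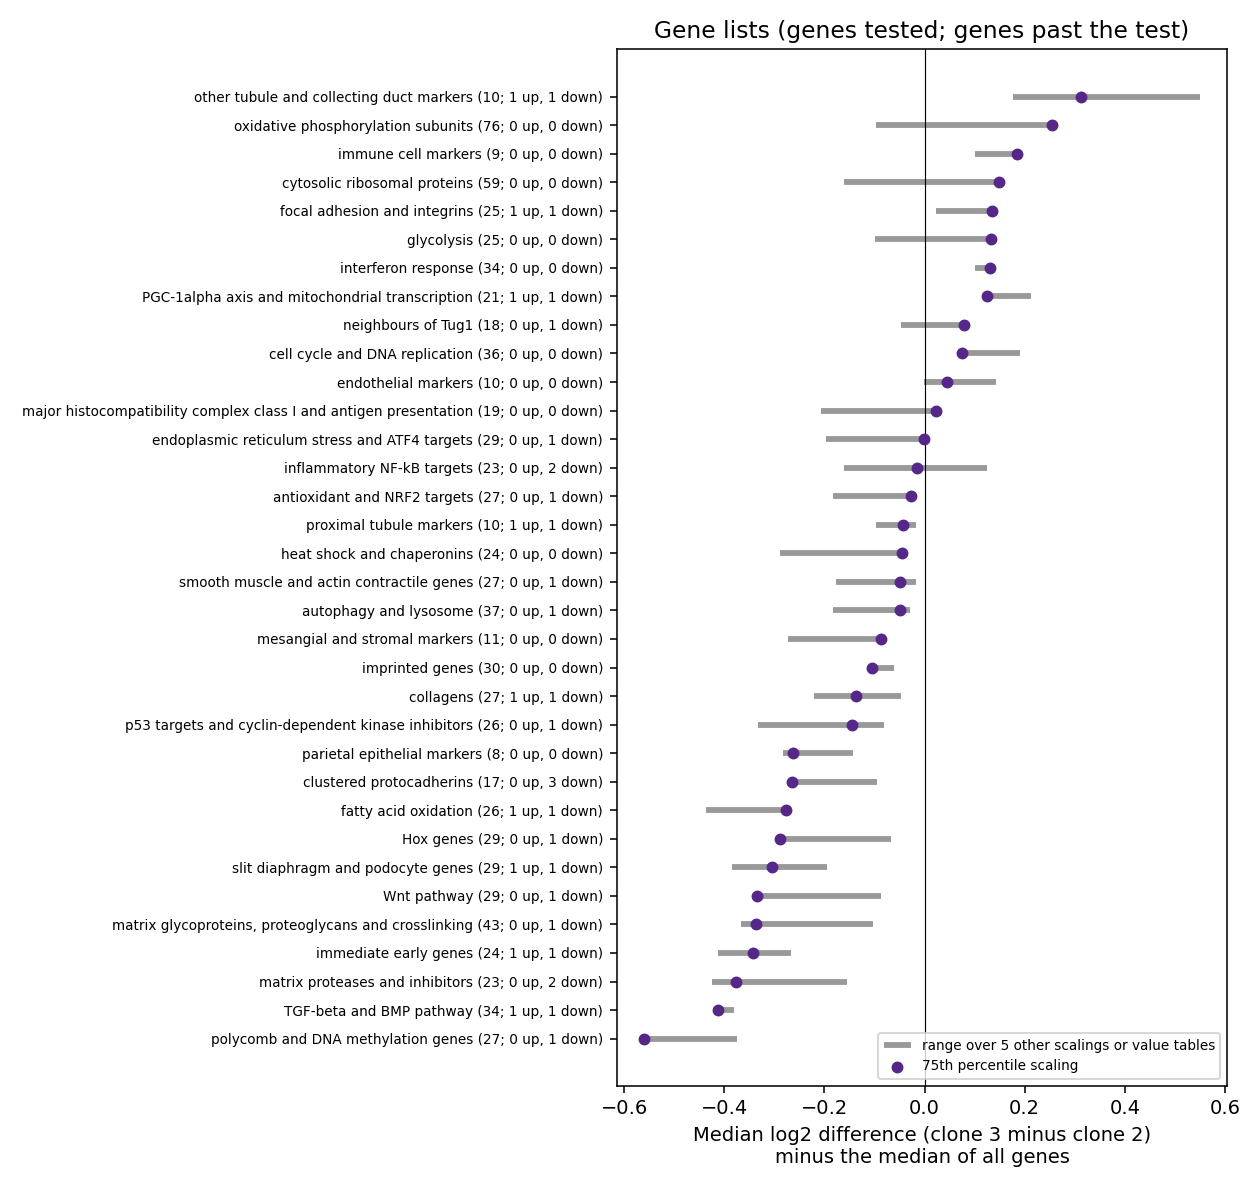
Median log2 difference of each list minus the median of all genes (x axis), with the 75th percentile scaling as points, the range over 5 other scalings or value tables as bars, and the genes tested and called in brackets. Median centring, 1 of the 5, cannot move these values. The polycomb point lies lowest at -0.56, a rank not kept in every other scaling, and the bars of oxidative phosphorylation and cytosolic ribosomal proteins cross 0.

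The other lists had few calls. Of stress and inflammatory genes, the p53 target Trp53inp1 differed by -2.88 (0.16 on its other probe) and Ptgs2, cyclooxygenase 2, by -2.63. The chaperone Dnajb9 differed by -1.51 (-1.09 on its other probe), and Birc3 was at least 3.33-fold lower. Catalase (Cat) differed by -2.60, with -5.33 on its other probe, which was not above background on either clone 3 array. Clustered protocadherins had 0 rises and 3 falls among 17 tested (0.797% and 2.38% of all genes), Pcdhb17 (-3.01), Pcdhb6 (-1.50) and Pcdhb22 (-1.24), adhesion genes of similar sequence that probes may not separate. Hoxb3 differed by -2.16 (-0.20 on its other probe) and Lamp2, a lysosomal membrane protein, by -2.01 (-0.98 on its other probe). Glycolysis, cell cycle, interferon, antigen presentation, heat shock and imprinted genes had 25, 36, 34, 19, 24 and 30 genes tested and 0 called by limma; Xist differed by 0.12 and did not pass.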

How the data were processed

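Agilent 1-colour arrays of 6 podocyte cultures in 3 groups were used, with 4 arrays in the comparison. The deposited scanner files hold processed spot intensity, and the submitters' processing notes name Agilent Feature Extraction 11.0.1.1 as the scanner software. The series values the authors deposited are on a log2 scale; no source used here states their normalization; each clone column followed its own array (r 0.9990 to 1.000, medians 8.98 to 9.11), and they served as an alternative.

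Log2 processed signal minus the array's 75th percentile over gene spots was used. Control and outlier spots were dropped, and 25101 probes well above background on each array of clone 2, of clone 3 or of both were kept (6 were lost to outlier spots). Each gene took its brightest probe. Symbols came from RefSeq (GRCm38.p6) by accession, for 27234 of 39429 probes; 6193 tested genes have none. limma 3.58.1 (R 4.3.3; lmFit, eBayes, 2 residual and 2.70 prior degrees of freedom) was fitted to the 4 clone arrays and tested on simulated data. Its p-values measure the spread between 2 arrays a clone; an exact permutation of 2 against 2 cannot go below 0.333. Named genes were the 15 largest called rises and falls above background on all 4 arrays without overlap, up to 6 bounded ones a direction, up to 3 a direction in each of 35 lists, and Tug1, Morc2a, Ppargc1a, Tfam, Wt1, Nphs1, Synpo and Xist. Some genes the rule names are not reported here. Ppargc1a was too dim to test, and Suz12, Bmi1, Ezh1 and Ezh2 were added after their values were seen. The comparison and lists were chosen with earlier results of these data known.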

Additional observations from a re-analysis of the deposited data

Results flagged for a closer look

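The Agilent spike-in probes, used in no comparison, had spots well above background on the clone arrays more often than on the shControl arrays. Of 320 such spots, 37 and 34 were well above background on the clone 2 arrays and 51 and 56 on the clone 3 arrays, against 7 and 5 on the shControl arrays of the other slide. Their median background-subtracted signal stayed between 0.59 and 2.40 intensity units on the clone arrays. The part of this difference in the gene results was not tested.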

How the results depend on the processing

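With rises given before falls, limma called 107 and 768 genes under cyclic loess, 4907 and 1676 after normexp, 752 and 785 in the authors' deposited log2 values, 2939 and 1235 when all 4 arrays had to be above background, 0 and 0 with no filter on dim probes (8077 at an unadjusted p under 0.05), 229 and 808 over all probes, 70 and 187 with all 6 arrays in the fit, and 3433 and 1456 with a trended, robust variance. Leaving out 1 array gave 0 to 1411 rises and 0 to 952 falls. Quantile normalization (117 and 611) and median centring (210 and 446) stayed within 1.5 times. Tug1 was -0.70 after normexp, -1.54 under cyclic loess, -1.37 under quantile normalization, -1.25 with median centring and -1.26 in the deposited values, each past the threshold. At -1.30 it lost its call with no filter (adjusted p = 0.12) and with 6 arrays (0.159); leaving out 1 array gave -1.36 to -1.23. Of the refits of named genes, 813 kept direction and side of the threshold, 337 lost the call in the same direction and 1 gained it; of the list medians, 424 moved by less than the replicate spread and 101 by more. The cause of these changes was not tested.

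With the replicate number as a block, 75 genes rose, 255 fell, and Tug1 (-1.30) had an adjusted p of 0.10. The numbers do not pair the samples, since deviations of same-numbered arrays correlated at -0.093. Scaling on the spike-in probes was not run, because most of their spots were not above background, and normexp used median spot signals. Each group has 2 arrays, and genes dim in a clone have only a bound there.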

Other observations

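Families grouped by symbol after their values were seen were placed differently between the clones. Of 20 heterogeneous nuclear ribonucleoprotein genes tested, which package and splice pre-mRNA, 0 rose and 3 fell past limma's threshold (0.797% and 2.38% of all genes), 3 lay entirely above and 12 entirely below clone 2 (59.4% and 16.6% of all genes), and the median was -0.38. That is -0.76 relative to all genes, and -0.99 to -0.76 over 5 other scalings, of which median centring cannot change it. Of 10 Srsf splicing factor genes, 1 fell and 5 lay entirely below clone 2, with a median of -0.43 (-0.82 relative to all genes, and -1.16 to -0.81 in the other scalings). Of 77 mitochondrial ribosomal protein genes 0 were called by limma and 65 lay entirely above clone 2, with a median of 0.65. That is 0.26 relative to all genes, and 0.04 to 0.27 in the other scalings. Their median level was 3.30 in clone 2 and 3.93 in clone 3, and the 9th of 10 groups of genes by level, which holds these levels, had a median of 0.54. Olfactory receptors, 353 of them tested at levels near background, had 5 rises, 1 fall and a median of 0.39, the value of the median gene.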
